A study of Homo sapiens with 10 samples.

Results

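The comparison described here sets the 2 libraries labelled KO+CFLAR against the 4 libraries of 2 STAMBP knockout lines, KO1 and KO2, across all expressed genes. The labels chose these 6 of 10 RNA-seq libraries, and both knockout lines carried equal weight. Per the labels, every library came from neural progenitor cells (NPCs) derived from H1, a human embryonic stem cell line in wide use. WT is the wild type, KO1 and KO2 carry a STAMBP knockout, and KO+STAMBP and KO+CFLAR are the STAMBP knockout given STAMBP or CFLAR. Each of these 5 groups has 2 libraries. Which knockout line was given CFLAR, whether a line is 1 clone and whether the 2 libraries of a group were grown separately are not stated. A p-value here thus reflects the spread from library to library alone, and that spread may be technical.

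STAMBP encodes a deubiquitinase that acts with the ESCRT complexes, which sort ubiquitinated receptors at endosomes for breakdown in lysosomes. Loss of STAMBP in people causes microcephaly-capillary malformation syndrome, in which progenitor loss by apoptosis has been proposed. CFLAR encodes cFLIP, a catalytically inactive relative of caspase-8 that binds the adaptor FADD and limits caspase-8 activation downstream of death receptors. CFLAR is itself a transcriptional target of NF-kB. The comparison asks how gene expression in the libraries labelled KO+CFLAR differs from that in the knockout libraries.

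RNA of both targeted genes lay near WT in the libraries labelled KO+CFLAR. On GRCh38 (GENCODE 29), CFLAR lies at chr2:201116104-201176687 and STAMBP at chr2:73828916-73873659, both as whole genes. CFLAR was at 31.3 and 29.4 CPM (counts scaled to library depth, defined below) in the libraries labelled KO+CFLAR, against 257, 248, 247 and 264 CPM in the knockout libraries and 34.2 and 30.4 CPM in WT. Both values lay below every knockout value (log2 change -3.06 ± 0.05 SE, adjusted p = 7.10e-16) and differed from WT by -0.08 ± 0.07 on the log2 scale (adjusted p = 0.418). STAMBP was at 42.9 and 40.05 CPM, above the 19.5, 16.9, 19.2 and 18.9 CPM of the knockout libraries and near the 43.4 and 47.2 CPM of WT (log2 change 1.15 ± 0.07 SE, adjusted p = 2.00e-09). A sample described as a knockout given CFLAR thus had neither the STAMBP level of the knockout lines nor more CFLAR RNA than WT. In KO+STAMBP, STAMBP RNA was near WT as well, at values given below. Whether the counting included reads from a construct is not stated. RNA level does not show the edit itself, so whether the label is right was not tested. Every direction below rests on the label of these 2 libraries.

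**Figure D1:**
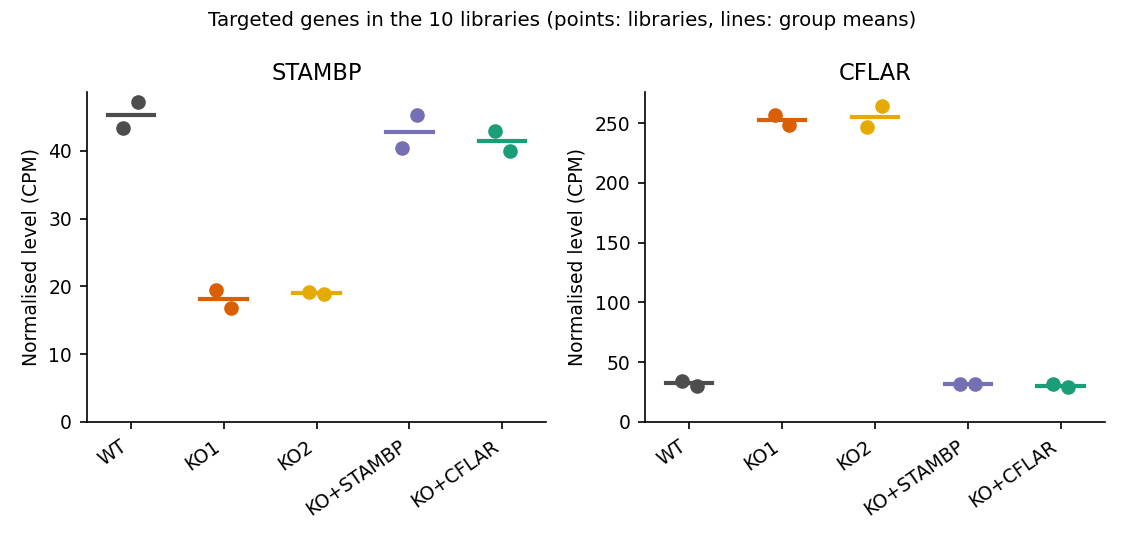
STAMBP (left) and CFLAR (right) in CPM on linear axes from 0, with a point for each of the 10 libraries and a line at each group mean. The 2 libraries labelled KO+CFLAR sit beside WT and KO+STAMBP in both panels, above the knockout for STAMBP and below it for CFLAR.

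CPM is edgeR's count of a gene relative to the library total after TMM scaling (trimmed mean of M-values). A change is the fitted log2 difference with its standard error (SE), and a gene rose or fell where edgeR's quasi-likelihood test gave a Benjamini-Hochberg adjusted p under 0.05. Library totals ran from 16495116 to 20832700 counts. Mitochondrially encoded genes took 4.60 and 4.89% of counts in the libraries labelled KO+CFLAR and 3.39 to 3.69% in the knockout. Counting noise alone did not account for the difference between the 2 libraries (chi-square of 3.51 per gene), and they were kept as 2 samples. Whether a lower level means fewer cells of a type or less RNA per cell cannot be told apart in such bulk samples.

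Of 21063 tested genes, 16434 (78.0%) were called, 8423 higher (40.0%) and 8011 lower (38.0%). A stricter test of change beyond 2-fold (edgeR's glmTreat) called 8170 (38.8%), with 4350 higher (20.7%) and 3820 lower (18.1%). At least 16-fold was reached by 1131 called genes upward and 1137 downward, and at least 256-fold by 119 and 178. The median size of the log2 change was 0.96, against 0.11 between the 2 libraries labelled KO+CFLAR and 0.09 between the means of the lines KO1 and KO2. All 6 libraries split without overlap, with the 2 above the 4, for 8743 genes (41.5%), and with the 2 below for 8320 (39.5%). Scaling by library size alone moved the median of all genes by 0.20 on the log2 scale and gave 9782 higher and 6803 lower calls, so small differences depend on the scaling and large ones are read relative to that shift. Under that scaling CASP9, DNAJA1, KRT5, SCARB2, KCNH2, ALDH1L1 and POU5F1, given below as not called, were called higher.

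**Figure D2:**
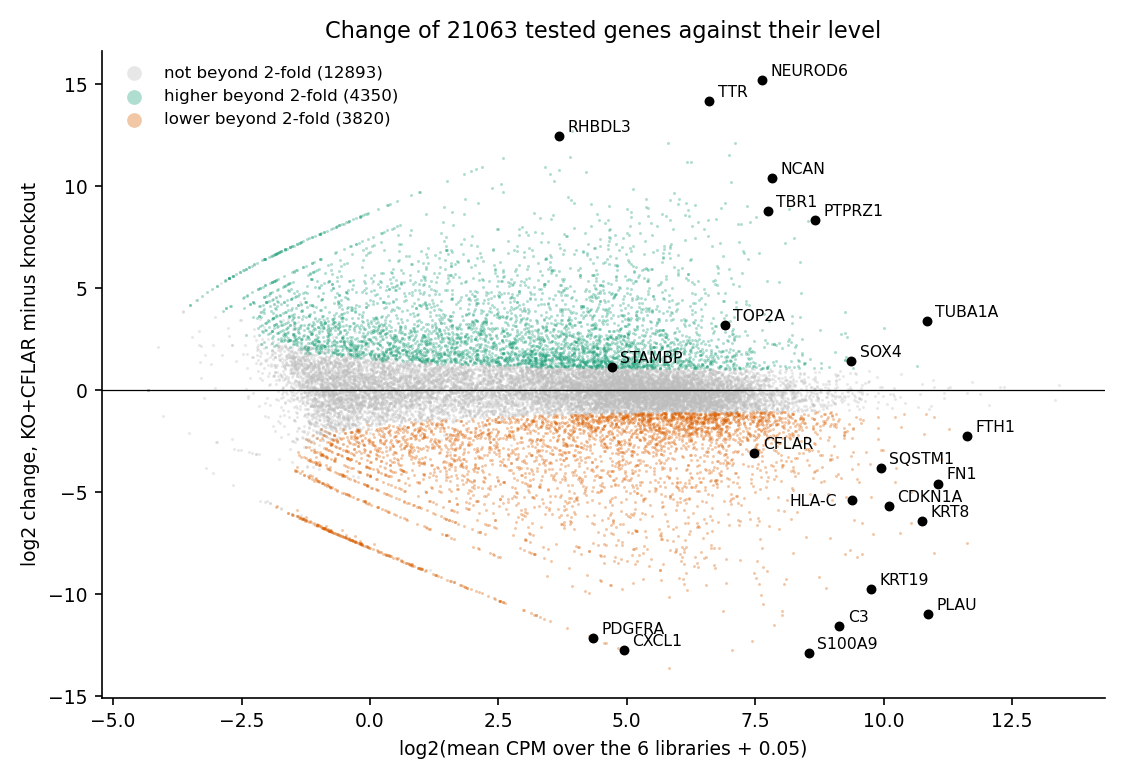
Fitted log2 change of each of 21063 tested genes (vertical axis) against log2 of its mean CPM over the 6 libraries plus 0.05 (horizontal axis), coloured by the test of change beyond 2-fold, with named genes in black. Changes extend past 10 log2 units in both directions, and the slanted lines at low levels are genes with 0 or a few counts in 1 of the groups.

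Against line KO1 alone, 15776 genes (74.9%) were called, 8029 higher (38.1%) and 7747 lower (36.8%). Against line KO2 alone, 15758 (74.8%) were called, 7988 higher (37.9%) and 7770 lower (36.9%). The lines themselves differed in 33 genes (0.157%), 28 higher in KO1 (0.133%) and 5 in KO2 (0.0237%), with 1196 at an unadjusted p under 0.05; the number was 58 without KO1 replicate 2 and 20 without KO2 replicate 2. WT served as a reference outside the rule: 7104 genes (33.7%) differed from it, 3325 higher (15.8%) and 3779 lower (17.9%). All of these comparisons but that of the lines share the libraries labelled KO+CFLAR, so their calls are given side by side and not as support for each other. The shares of all tested genes called higher or lower, 40.0% and 38.0% against the knockout, are the background for list counts below. Against WT they are 15.8% and 17.9%.

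Genes of cortical neurons and of choroid plexus were among the largest rises. NEUROD6, a bHLH factor of cortical excitatory neurons, was at 594 and 593 CPM with 1 count over the 4 knockout libraries, a ratio of 39117 (95% interval 7020.0 to 1545100.0). TTR, the thyroid hormone carrier made by choroid plexus, was at 288 and 297 CPM, also with 1 count in the knockout, a ratio of 19270.0 (95% interval 3458 to 761200.0). RHBDL3, a rhomboid-family membrane protein, was at 38.5 and 38.4 CPM with 0 counts in the knockout, at least 845-fold higher. The floor for such bounds is 3 counts over the group, and these intervals and bounds cover counting error only. The bHLH factors NEUROD2 (log2 change 11.52 ± 0.10) and BHLHE22 (11.19 ± 0.11), the membrane protein SEZ6 (11.18 ± 0.12) and the non-coding RNA LINC00461 (12.11 ± 0.10) also rose. With 1 or 2 knockout counts, the ratio was 2080.5 (95% interval 373 to 82236) for NEUROD1, 2916 (95% interval 523 to 115210.0) for the neuronal chromatin subunit ACTL6B and 5488 (95% interval 1519 to 45323) for the adaptor SLA, and with 0 the neurotensin receptor NTSR1 was at least 396-fold higher. All of these genes were near 0 in the 4 knockout libraries.

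Inflammatory and stratified epithelial genes were among the largest falls. S100A9, a calcium-binding alarmin, was at 0.0466 and 0.0907 CPM against 545 to 573 CPM, with 3 counts in all, a ratio of knockout to KO+CFLAR of 8143 (95% interval 2786 to 39486). CXCL1, a neutrophil chemokine, had 0 counts in both libraries against 40.9, 48.4, 47.1 and 48.7 CPM, at least 671-fold lower. TMPRSS11E, an epithelial serine protease, was at least 619-fold lower, the interferon-responsive EPSTI1 at least 514-fold, the cobalamin binder TCN1 at least 416-fold, the cytokine CLCF1 at least 309-fold and PDGFRA, a receptor of mesenchymal and oligodendrocyte precursor cells, at least 443-fold lower. Complement C3 went from between 814 and 878 CPM to 0.1397 and 0.408 CPM (log2 change -11.55 ± 0.10 SE, adjusted p = 4.87e-19).

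**Figure D3:**
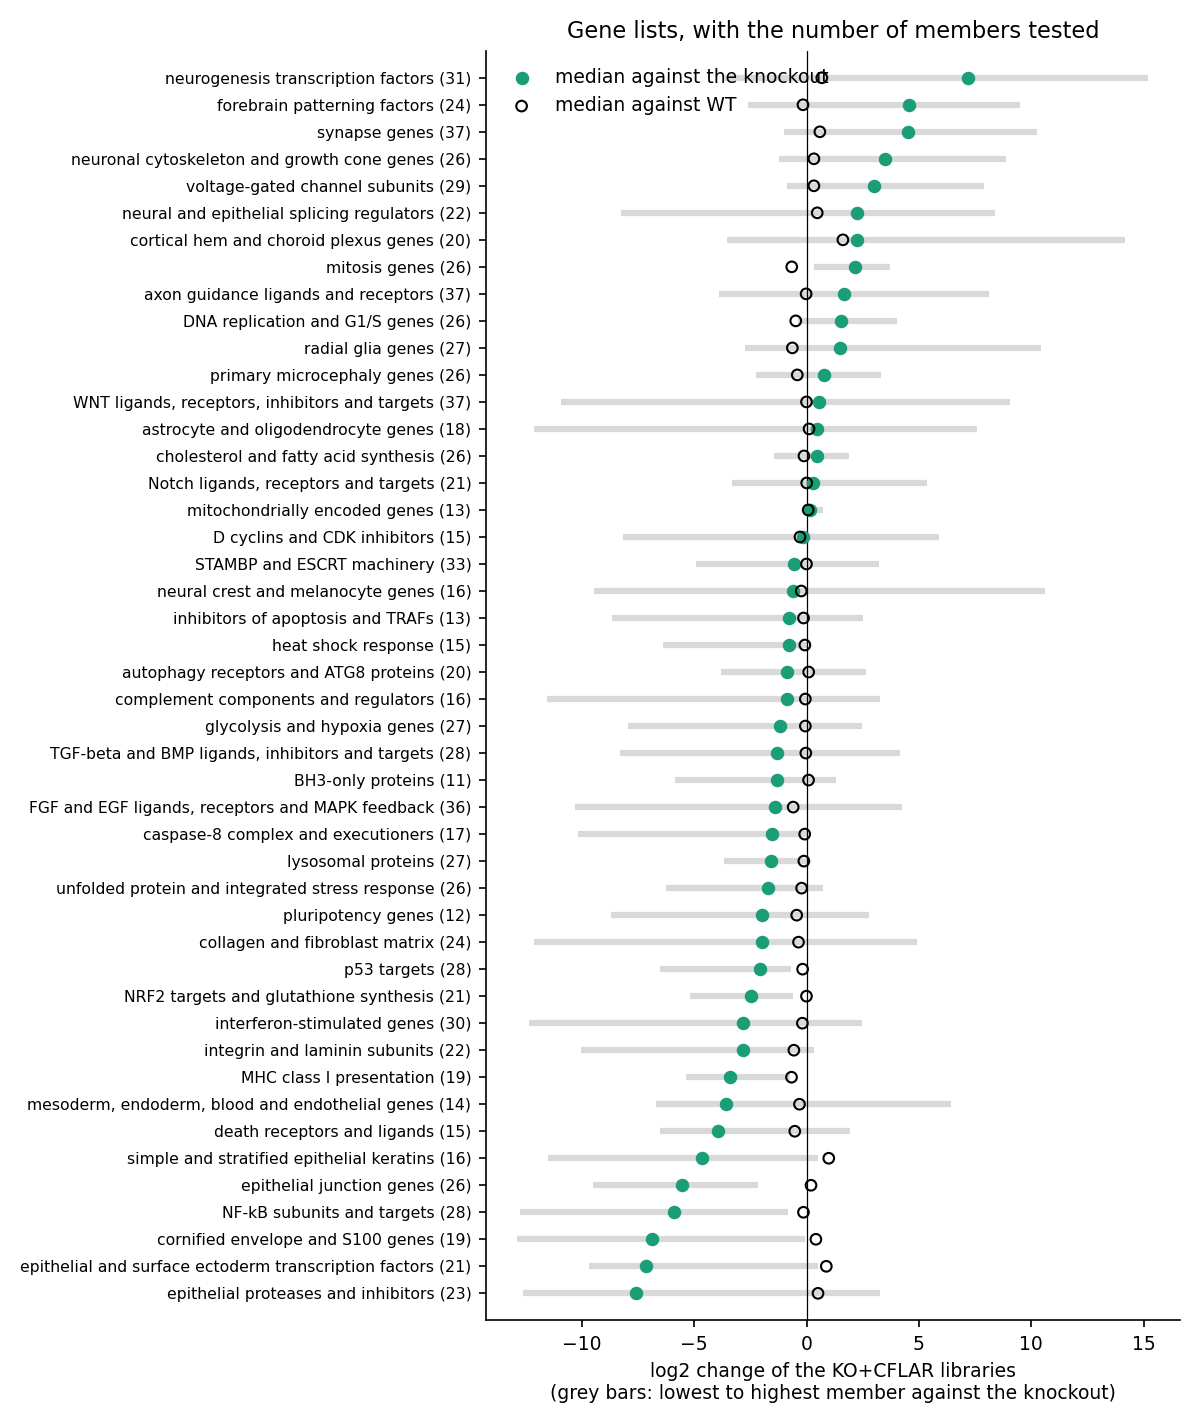
Median log2 change of each gene list with at least 10 tested members in the libraries labelled KO+CFLAR, against the knockout (filled) and against WT (open), with grey bars from the lowest to the highest member against the knockout; both comparisons share the libraries labelled KO+CFLAR. Neuronal and forebrain lists lie furthest right and epithelial and NF-kB lists furthest left against the knockout, while medians against WT run from -0.67 (MHC class I presentation) to 1.62 (cortical hem and choroid plexus).

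Genes of the death receptor pathway, in which CFLAR acts, were lower almost throughout. Ligands such as TNF and FASL bind receptors that recruit FADD and caspase-8, which activates the executioner caspases, while BCL2-family proteins govern the mitochondrial branch. Of 15 tested receptors and ligands, 13 fell and 2 rose (median log2 -3.96), where 38.0% of all tested genes fell and their median was 0.04. TNFRSF21 (death receptor 6) was at 39.3 and 36.2 CPM against 591, 579.8, 581 and 599 CPM in the knockout (log2 change -3.96 ± 0.04 SE, adjusted p = 5.20e-18). TNFRSF10B, the TRAIL receptor DR5 and a p53 target, was at 69.6 and 65.9 CPM against 498, 492, 494 and 499.7 CPM (log2 change -2.87 ± 0.04 SE, adjusted p = 3.63e-17). TNFRSF1A, the main TNF receptor, went from between 170.2 and 175 CPM to 19.8 and 20.3 CPM, below the 36.5 and 40.05 CPM of WT (log2 -0.94 ± 0.06 SE against WT, adjusted p = 5.00e-08). The groups did not overlap for any of these 3 receptors, which lay below the knockout as did 39.5% of all tested genes. NGFR, the p75 neurotrophin receptor, rose from between 1.59 and 2.598 CPM to 8.197 and 8.16 CPM (log2 change 1.92 ± 0.17 SE, adjusted p = 8.35e-08).

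Of 17 caspase-8 complex and executioner genes, 0 rose, 16 fell and CASP9, the initiator of the mitochondrial branch, was not called (log2 0.03 ± 0.10). The median was -1.53. CFLAR itself is a member. APAF1, the apoptosome scaffold, fell by 0.68 on the log2 scale.

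Members of the BCL2 family that promote and prevent death fell together. Among survival proteins, MCL1 was at 225 and 218 CPM against 712, 694, 692 and 682 CPM (log2 change -1.65 ± 0.03 SE, adjusted p = 1.90e-15) and BCL2L1 (BCL-xL) at 131 and 141 against 462 to 482 CPM (log2 change -1.80 ± 0.04 SE, adjusted p = 5.79e-15). The effector BAX was at 28.3 and 31.02 CPM against 94.5 to 98.1 CPM (log2 change -1.69 ± 0.05 SE, adjusted p = 6.57e-13). BCL2 was the 1 member of these 8 that rose, from 6.11, 6.13, 4.56 and 6.64 CPM to 54.7 and 46.4 CPM, above the 36.3 and 33.3 CPM of WT (log2 change 3.10 ± 0.10 SE, adjusted p = 7.64e-13). Of 11 BH3-only proteins, which antagonise the survival proteins, 6 fell, 2 rose and 3 were not called. PMAIP1 (NOXA) went from 203, 185, 189.9 and 198 CPM to 4.099 and 3.95 CPM (log2 change -5.59 ± 0.07 SE, adjusted p = 3.54e-17), and BMF from between 296 and 305 CPM to 22.03 and 23.1 CPM (log2 change -3.73 ± 0.05 SE, adjusted p = 2.61e-17). The 2 that rose, 0 of them beyond 2-fold, were BAD and the mitophagy receptor BNIP3L (0.63 ± 0.03). HRK, BNIP3 and BCL2L14 were not called. Against WT, 4 of the 11 were higher and 2 lower, where 15.8% and 17.9% of all tested genes were. Of 13 inhibitors of apoptosis and TRAF adaptors, 9 fell, among them the caspase inhibitor XIAP (-0.78 ± 0.04), the ubiquitin ligase BIRC2 (-1.58 ± 0.05) and the adaptor TRAF4 (-1.41 ± 0.04), and 3 rose. The 3 were NAIP (1.46 ± 0.08), TRAF5 (0.68 ± 0.10) and BIRC5 (survivin), an inhibitor-of-apoptosis family member that also serves in cell division (2.50 ± 0.06).

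Markers of epithelium moved with all of these lists. Of 18 listed keratins, 16 were tested and 15 fell. They summed to 71.5 and 74.1 CPM in the libraries labelled KO+CFLAR and to between 5602 and 5961 CPM in the knockout, and 0 of them had 0 counts in both libraries labelled KO+CFLAR. Their part in the results on death, inflammation and stress was not tested.

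NF-kB subunits and targets fell without exception: 28 of 28 tested (27 beyond 2-fold, where the background is 18.1%), of 29 listed, with a median log2 of -5.88, or -5.41 when a gene with 3 or fewer counts takes its bound. NF-kB is the dimeric factor that TNF receptors activate, and it induces its own inhibitors. NFKBIA, the inhibitor IkB-alpha, was at 13.6 and 15.7 CPM against 248, 256.1, 251 and 261 CPM (log2 change -4.11 ± 0.07 SE, adjusted p = 9.80e-16). The ubiquitin-editing inhibitor TNFAIP3 (A20) was at 3.54 and 2.72 CPM against 138, 132, 139.8 and 141 CPM (log2 change -5.46 ± 0.10 SE, adjusted p = 6.97e-16), and its partner TNIP1 at 23.2 and 21.5 against 269.5, 259.7, 279 and 273 CPM (log2 change -3.60 ± 0.05 SE, adjusted p = 1.36e-16). Each of these 3 was lower in both libraries than in any knockout library, as were 39.5% of all tested genes. The smallest change was in SOD2, mitochondrial superoxide dismutase (-0.81 ± 0.04). Against WT, 10 members were lower and 0 higher, where 17.9% of all tested genes were lower.

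The promoters of falling NF-kB genes are shown because they share the letters of a kappaB site. Among RefSeq promoters on GRCh38.p14, 250 bases before to 50 after each start, the letters GGG, any 2 bases, TT, any base and CC, on either strand, were in 1994 of 35116 (5.68%). They were in 20 of 37 promoters of the listed genes (54.1%), which belong to 17 of 24 genes found in the table. The members were listed as known targets, so this share describes the list. Capitals mark each match in a 60-base window, 5′ to 3′ on the gene's strand.
CXCL1: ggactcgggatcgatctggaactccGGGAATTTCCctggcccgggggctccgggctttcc
NFKBIA: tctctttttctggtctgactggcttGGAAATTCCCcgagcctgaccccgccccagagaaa
TNFAIP3: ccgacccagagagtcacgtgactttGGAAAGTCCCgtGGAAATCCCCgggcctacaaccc
TNIP1: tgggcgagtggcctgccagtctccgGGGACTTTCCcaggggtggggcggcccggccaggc
These windows lie at chr4:73869289-73869348 (plus strand), chr14:35404796-35404855 (minus), chr6:137867167-137867226 (plus) and chr5:151081042-151081101 (minus). TNFAIP3 has 2 matches in its window, and the other 3 have 1 each. A match is a description of letters, and binding was not measured. Over all tested genes with a promoter in the table, the letters were found for 10.7% of the 2576 lower beyond 2-fold, 7.48% of the 2661 higher and 8.17% of the other 8037.

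Interferon-stimulated genes, which signalling from interferon receptors induces, mostly fell: 27 of 30 tested fell, 2 rose and USP18 was not called (median log2 -2.82). PARP14, an ADP-ribosyltransferase, went from between 152 and 160.4 CPM to 13.97 and 14.7 CPM, IFI6 from between 131 and 136 CPM to 9.501 and 9.16 CPM and the RNA sensor OAS3 from between 47.4 and 50.7 CPM to 0.512 and 0.272 CPM, the last below the 3.55 and 3.37 CPM of WT. IFI44L rose, from 16.1, 11.7, 13.9 and 14.4 CPM to 80.8 and 75.9 CPM (log2 change 2.48 ± 0.08 SE, adjusted p = 4.08e-13), as did its neighbour IFI44 (log2 change 2.06 ± 0.18 SE, adjusted p = 7.32e-08). These 2 went the other way from the 27 that fell. Both lay above all knockout libraries, as did 41.5% of all tested genes.

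All 19 genes of MHC class I presentation, which loads cytosolic peptides for display to T cells, fell (median log2 -3.40), and 12 were also lower than in WT. HLA-C was at 23.5 and 24.1 CPM against 973, 973, 1005 and 995 CPM (log2 change -5.37 ± 0.04 SE, adjusted p = 2.49e-19) and HLA-B at 17.5 and 18.7 against 750.3, 747, 771 and 752 CPM (log2 change -5.38 ± 0.06 SE, adjusted p = 1.19e-17). The chaperones of the loading complex fell less, CALR by 1.49 and PDIA3 by 1.39 on the log2 scale. HLA genes, like the SPRR2, KRT6 and CXCL1 to CXCL3 genes, have near-identical copies, and how the counting divided reads among them is not stated.

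Promoters of both lists hold the letters of an interferon-stimulated response element, searched as TTTC, any 2 bases and TTTC on either strand. They were in 1255 of 35116 promoters (3.57%), in 20 of 30 of the interferon-stimulated list (66.7%, for 16 of 23 genes found) and in 11 of 19 of the MHC class I list (57.9%, for 11 of 15 genes). Windows from 3 falling genes and from IFI44L and IFI44, which rose, are shown, since the letters were present in both.
EPSTI1: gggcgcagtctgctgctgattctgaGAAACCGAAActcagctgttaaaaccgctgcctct
OAS3: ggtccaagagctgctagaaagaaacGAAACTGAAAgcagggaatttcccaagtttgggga
PARP14: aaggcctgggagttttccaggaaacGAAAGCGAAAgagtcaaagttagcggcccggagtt
IFI44L: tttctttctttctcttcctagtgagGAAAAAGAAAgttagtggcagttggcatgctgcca
IFI44: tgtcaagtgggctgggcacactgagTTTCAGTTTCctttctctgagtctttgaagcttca
They lie at chr13:42992257-42992316 (minus strand), chr12:112938306-112938365 (plus), chr3:122680785-122680844 (plus), chr1:78620259-78620318 (plus) and chr1:78649746-78649805 (plus). Over all tested genes with a promoter in the table, these letters were found for 6.09% of those lower beyond 2-fold, 3.68% of those higher and 3.36% of the rest.

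Every p53 target on the list was lower, 28 of 28, 25 of them beyond 2-fold (median log2 -2.06). p53 is activated by DNA damage and other stress and halts division or triggers death. CDKN1A, the cyclin-dependent kinase inhibitor p21, was at 29.8 and 34.9 CPM against 1629.9, 1616, 1631 and 1664 CPM and 58.3 and 62.3 CPM in WT (log2 change -5.66 ± 0.06 SE, adjusted p = 1.99e-18). MDM2, the ubiquitin ligase that degrades p53, was at 116 and 117 CPM against 611, 571, 569 and 625 CPM (log2 change -2.35 ± 0.05 SE, adjusted p = 2.84e-15). PLK2 fell from between 727 and 751 CPM to 67.4 and 73.7 CPM but remained above the 32.997 and 36.3 CPM of WT (log2 1.02 ± 0.06 SE against WT, adjusted p = 1.65e-08). Of the 28, 13 were lower than WT and 3 higher.

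Stress responses of other kinds were lower too. On the list for the unfolded protein response and the integrated stress response, 24 of 26 genes fell, 1 rose and ASNS was not called (median log2 -1.73). ATF3 was at 2.93 and 4.54 CPM against 286, 282, 277 and 282 CPM (log2 change -6.23 ± 0.08 SE, adjusted p = 3.19e-17) and the chaperone HSPA5 (BiP) at 237 and 243 against 882, 873, 898 and 927 CPM (log2 change -1.90 ± 0.03 SE, adjusted p = 2.57e-16). PSAT1, a serine synthesis enzyme under ATF4, rose from between 80.2 and 91.1 CPM to 144 and 145 CPM and lay below the 221 and 232 CPM of WT. The asparagine synthetase ASNS, another ATF4 target, was at 35.8 and 42.3 CPM, within the knockout's 38.7 to 49.3 CPM.

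All 21 NRF2 targets and glutathione genes fell (median log2 -2.45). The iron store ferritin fell in both chains, FTH1 at 886 and 942 CPM against 4256 to 4329.9 CPM (log2 -2.23 ± 0.03) and FTL at 289 and 323 CPM against 3050.1 to 3254 CPM (-3.38 ± 0.05). Thioredoxin reductase TXNRD1 was at 140.3 and 139 CPM against 1155, 1120.1, 1147 and 1168 CPM (log2 change -3.04 ± 0.04 SE, adjusted p = 1.15e-17). Against WT the list was even, with 5 higher and 5 lower. Of 15 heat shock genes, 13 fell but 6 beyond 2-fold (median -0.79). HSP90AB1 went from between 1835 and 1929.9 CPM to 1086 and 1103 CPM, and the co-chaperone DNAJA1 was not called (0.05 ± 0.03).

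**Figure D4:**
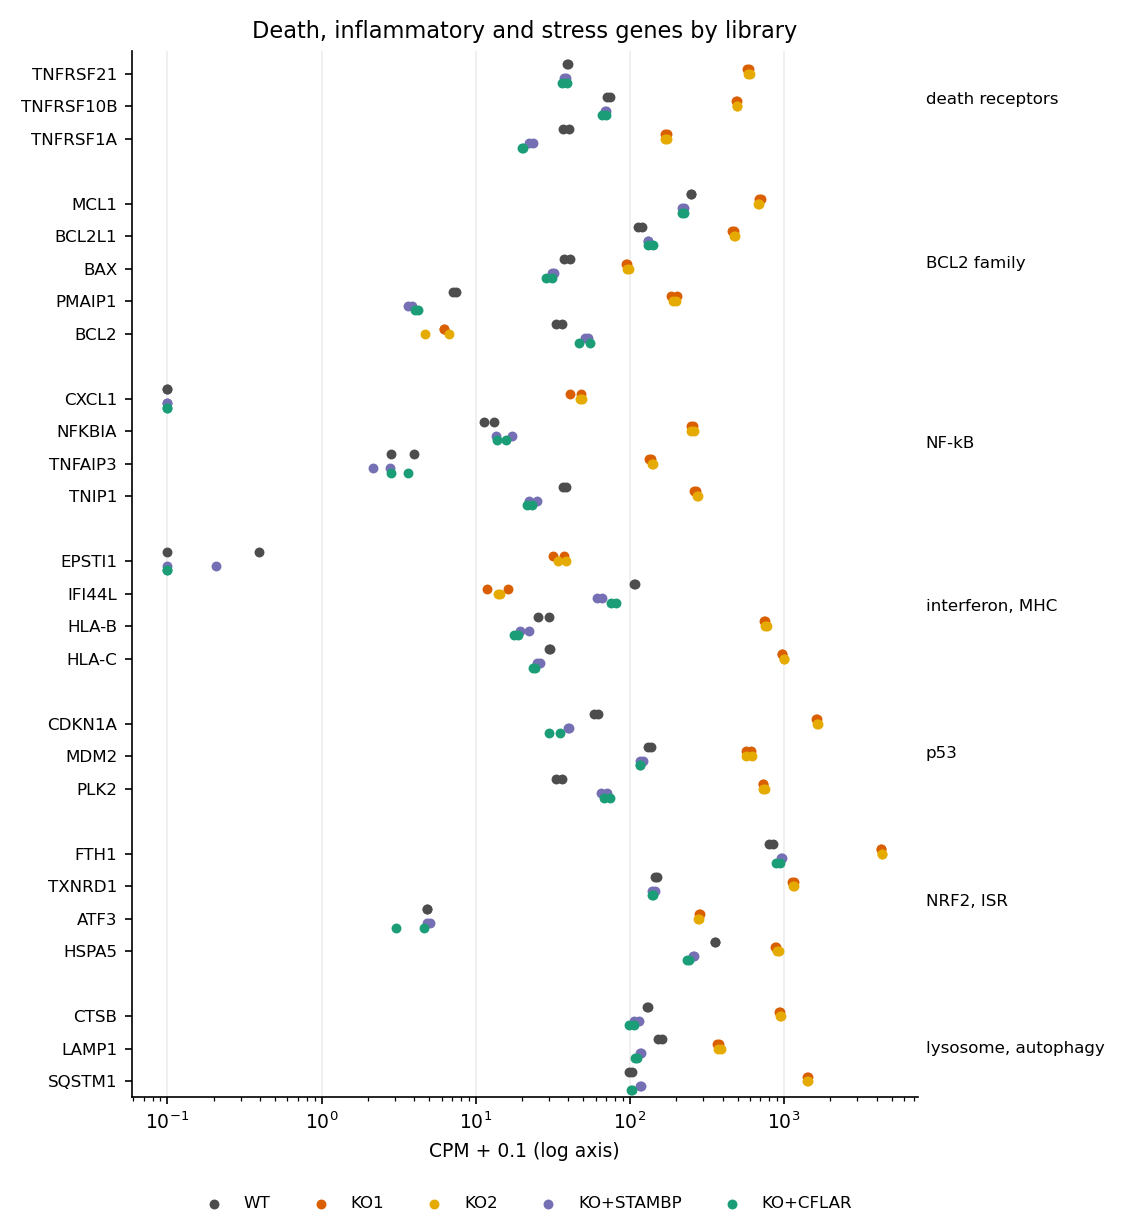
CPM plus 0.1 on a log axis for genes of cell death, NF-kB, interferon and MHC, p53, stress and lysosome lists, with a point for each of 10 libraries. The libraries labelled KO+CFLAR lie left of all knockout libraries for every gene shown except BCL2 and IFI44L, where they lie right.

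Most of the machinery STAMBP works with was lower by small amounts. Of 33 tested ESCRT and associated genes, 24 fell, 6 rose and 3 were not called (median log2 -0.56), and STAMBP itself is 1 of the 6. Beyond 2-fold, 5 fell and 4 rose, where 18.1% and 20.7% of all tested genes did. Under library size scaling, 21 of the 33 fell and 7 rose (median -0.36). CHMP1B, an ESCRT-III subunit, was at 59.9 and 56.2 CPM against 208, 210.3, 209 and 212 CPM (log2 change -1.85 ± 0.04 SE, adjusted p = 1.74e-14) and the ESCRT partner PDCD6IP (ALIX) at 132 and 122 against 213 to 232 CPM (-0.81 ± 0.04). MVB12B, an accessory subunit of ESCRT-I, rose from 13.4, 11.5, 11.4 and 14.3 CPM to 112 and 123 CPM (log2 change 3.20 ± 0.07 SE, adjusted p = 9.51e-15), and the ATPase VPS4A rose slightly (0.38 ± 0.05).

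Autophagy and lysosome genes lay lower. SQSTM1 (p62), which carries ubiquitinated cargo to autophagosomes and is also an NRF2 target, was at 103 and 102 CPM against 1443, 1421, 1437 and 1410.1 CPM and 98.6 and 103 CPM in WT (log2 change -3.80 ± 0.03 SE, adjusted p = 9.70e-19). Of 20 autophagy receptors and ATG8 proteins, 16 fell and 3 rose, the latter including MAP1LC3A (1.80 ± 0.08). Of 27 lysosomal genes, 25 fell and 0 rose (median -1.57). Cathepsin B, CTSB, was at 98.7 and 106 CPM against 923, 936, 948 and 957 CPM (log2 change -3.20 ± 0.04 SE, adjusted p = 2.40e-17), and the membrane protein LAMP1 at 107 and 111 against 370.3 to 390.2 CPM (-1.80 ± 0.04). SCARB2, the receptor that carries glucocerebrosidase, was not called, at 419 and 394 CPM in the libraries labelled KO+CFLAR and 393 to 417 CPM in the knockout.

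Epithelial genes were far lower than in the knockout, and several were still detected at the level of WT or above it. Of 26 junction genes, 26 fell beyond 2-fold (median log2 -5.55), and their sum of 316 to 330.2 CPM lay near the 341 to 354 CPM of WT. The cadherin CDH1 was at 4.98 and 3.81 CPM against 1109, 1110.0, 1169 and 1195 CPM (log2 change -8.03 ± 0.07 SE, adjusted p = 4.35e-19), and desmoglein DSG2 at 25.8 and 23.7 against 2117 to 2239.6 CPM. Of 16 tested keratins, 15 fell and KRT5, the basal keratin, was low in both groups, at 1.96 and 1.54 CPM against 1.05 to 1.39 CPM. KRT8 was at 30.6 and 30.4 CPM against 2524, 2482, 2683 and 2539 CPM (log2 change -6.39 ± 0.04 SE, adjusted p = 1.86e-19), which was still above the 15.1 and 15.2 CPM of WT (adjusted p = 6.88e-09 against WT), and KRT18 and KRT19 were likewise above WT (log2 0.83 ± 0.10 and 1.18 ± 0.26). Of the 16 keratins, 7 were higher than in WT and 0 lower.

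Of 21 epithelial transcription factors, 20 fell (median -7.15). TFAP2C rose from between 27.6 and 29.96 CPM to 40.3 and 40.9 CPM. Among 23 tested proteases and inhibitors, 22 fell (median -7.60, or -6.54 at the bound). PLAU, the urokinase plasminogen activator, was at 1.54 and 1.27 CPM against 2731, 2746, 2837 and 2846 CPM (log2 change -10.95 ± 0.07 SE, adjusted p = 1.44e-19). Of 19 cornified envelope and S100 genes, 17 fell, and TGM1 and S100A8 were not called. S100A8, whose protein pairs with that of S100A9, was at 0.699 and 0.272 CPM against 0.606 to 1.82 CPM in the same knockout libraries that held 545 to 573 CPM of S100A9.

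Matrix and adhesion genes followed. Fibronectin, FN1, was at 131 and 135 CPM against 3056, 3096, 3240.1 and 3213 CPM (log2 change -4.57 ± 0.03 SE, adjusted p = 2.49e-19) and also below the 294 and 282 CPM of WT (log2 -1.11 ± 0.03 SE against WT, adjusted p = 5.99e-12). Of 24 collagen and fibroblast matrix genes, 18 fell and 6 rose, among the latter THY1 (3.23 ± 0.08) and COL6A1 (0.59 ± 0.04). Against WT, 15 of the 24 were lower and 5 higher, where 17.9% and 15.8% of all tested genes were. Of 22 integrin and laminin subunits, 21 fell and ITGA7 rose slightly (0.31 ± 0.05). ITGB1, the beta chain shared by many integrins, was at 189.9 and 178 CPM against 1355 to 1428 CPM. Of these 22, 12 were lower than WT and 5 higher, beside the same 17.9% and 15.8% of all tested genes.

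Of 16 complement genes, 8 fell and 6 rose, where 38.0% and 40.0% of all tested genes did, so these shares lie near the background. C3 and the regulators CD55 (-4.85 ± 0.12), CD59 (-2.01 ± 0.04) and CD46 (-1.38 ± 0.04) fell. Clusterin, CLU, rose from between 81.7 and 87.8 CPM to 306 and 322 CPM (log2 change 1.90 ± 0.04 SE, adjusted p = 1.71e-15), and C5 (3.27 ± 0.20) and CFD (1.94 ± 0.16) rose as well.

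Neural identity genes mostly rose. Of 24 forebrain patterning factors, 20 rose, 19 of them beyond 2-fold where 20.7% of all tested genes did (median log2 4.57). FEZF2, a factor of deep-layer cortical neurons, was at 168 and 175 CPM against 0.275, 0.261, 0.331 and 0.173 CPM (log2 change 9.34 ± 0.09 SE, adjusted p = 1.04e-18). NR2F2 (-2.29 ± 0.04), TCF7L2 (-1.44 ± 0.06) and SIX3 (-2.60 ± 0.10) fell.

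Radial glia genes, which mark the progenitors named on the labels, rose for 16 of 27 and fell for 10 (median 1.47), and under library size scaling 16 rose and 4 fell. Against WT 19 were lower and 3 higher. PTPRZ1, a receptor phosphatase, was at 1271 and 1162 CPM against 4.46, 3.39, 2.91 and 4.0996 CPM and 1939 and 1824 CPM in WT (log2 change 8.34 ± 0.07 SE, adjusted p = 4.67e-19). SOX2, a progenitor factor, was at 192 and 192 CPM against 26.7, 28.5, 29.96 and 28.6 CPM in the knockout and 297 and 297 CPM in WT (log2 change 2.76 ± 0.04 SE, adjusted p = 5.09e-17). NCAN, a neural proteoglycan, rose from between 0.3304 and 0.635 CPM to 681 and 683 CPM. The 10 that fell were PAX6, SOX9, HES1, NOTCH1, HOPX, PHGDH, MOXD1, VIM, NES and TNC. Beyond 2-fold, 2 fell and 16 rose, where 18.1% and 20.7% of all tested genes did. VIM, NES and TNC are markers of radial glia that other cells also express. VIM was at 1293 and 1338 CPM against 2245 to 2273 CPM in the knockout and 2086 and 2233 CPM in WT (-0.78 ± 0.03 against the knockout), and TNC at 142 and 141 against 509 to 538 CPM in the knockout and 689 and 669 CPM in WT (log2 change -1.89 ± 0.03 SE, adjusted p = 5.49e-16). Both lay below all knockout and WT libraries.

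Genes of the cortical hem and choroid plexus, the dorsal midline tissues that secrete WNT and BMP signals and cerebrospinal fluid, were above WT as well as the knockout. Of 20 tested, 14 rose and 4 fell against the knockout (median 2.23). Against WT, 17 were higher and 2 lower (median 1.62), where 15.8% of all tested genes were higher. Against KO+STAMBP, 0 were higher and 4 lower (median -0.19). TTR was at 19.9 and 18.3 CPM in WT (log2 3.94 ± 0.06 SE against WT, adjusted p = 5.74e-14). RSPO2, a WNT enhancer, was at 122 and 121 CPM against 1.05, 0.652, 0.463 and 0.808 CPM in the knockout and 18.3 and 19.4 CPM in WT (log2 2.68 ± 0.06 SE against WT, adjusted p = 8.43e-13). WNT8B, a hem ligand, was at 77.9 and 72.3 CPM against 0.2203, 0, 0.0661 and 0.231 CPM in the knockout and 18.9 and 20.7 CPM in WT (log2 1.92 ± 0.09 SE against WT, adjusted p = 7.17e-10). BMP4 fell, to 1.96 and 2.59 CPM from between 23.9 and 27.98 CPM, and lay below the 6.05 and 5.97 CPM of WT.

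Neuronal genes rose almost throughout. Of 31 neurogenesis transcription factors, 29 rose (median 7.17), and 20 were higher than WT. TBR1, a factor of deep cortical layers, was at 656 and 622 CPM against 1.16, 1.43, 1.26 and 1.91 CPM and 385 and 371 CPM in WT (log2 change 8.79 ± 0.06 SE, adjusted p = 2.49e-19). DLX2 and LHX6, factors of inhibitory interneurons, fell from low levels, DLX2 from between 3.36 and 3.902 CPM to 2.38 and 1.18 CPM. Inhibitory genes did not share a direction. Named after their values were seen, the interneuron factor DLX1 rose to 2.33 and 2.54 CPM from between 0.195 and 0.346 CPM, the GABA-producing enzyme GAD1 to 9.32 and 7.39 CPM from between 2.02 and 2.25 CPM and the GABA transporter SLC32A1 to 0.978 and 1.41 CPM with 1 count in the knockout. GAD2, a paralog of GAD1, was the 1 of 37 synapse genes that fell, at 3.54 and 2.27 CPM against 5.396 to 6.22 CPM, and the other 36 rose (median 4.50). The AMPA receptor subunit GRIA2 was at 417 and 361 CPM against 0.3304, 0.261, 0.331 and 0.346 CPM in the knockout and 232 and 216 CPM in WT (log2 change 10.23 ± 0.12 SE, adjusted p = 7.36e-18).

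Cytoskeletal, channel and guidance genes showed the same direction. Of 26 cytoskeleton and growth cone genes, 25 rose, TUBA1A from between 431 and 448 CPM to 4502 and 4789.5 CPM (3.40 ± 0.03), and NEFH fell (-1.24 ± 0.17). Of 29 voltage-gated channel subunits, 27 rose, with the calcium channel CACNA1E at 283 and 254 CPM against 0.8599 to 1.44 CPM in the knockout and 107 and 97.6 CPM in WT (log2 change 7.90 ± 0.09 SE, adjusted p = 1.21e-17), while the sodium channel SCN9A fell (-0.89 ± 0.16) and KCNH2 was not called. Of 37 axon guidance genes, 27 rose and 8 fell. The netrin receptor DCC was at 454 and 404 CPM against 2.203, 1.04, 1.39 and 1.39 CPM (log2 change 8.13 ± 0.09 SE, adjusted p = 9.89e-18), and EPHA2, an ephrin receptor of epithelia, went from between 273 and 284 CPM to 18.6 and 18.6 CPM (-3.91 ± 0.04).

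Splicing regulators that distinguish neurons from epithelia moved in opposite ways. The neural factors CELF3 (8.38 ± 0.07), NOVA2 (5.39 ± 0.06) and CELF2 (3.32 ± 0.04) rose among 15 of 22. ESRP1, the epithelial regulator, was at 0.838 and 0.363 CPM against 182, 187, 185 and 182 CPM (log2 change -8.25 ± 0.12 SE, adjusted p = 8.01e-17). PTBP1, which represses neuronal exons, fell by 0.97 and PTBP3 by 2.79 on the log2 scale.

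**Figure D5:**
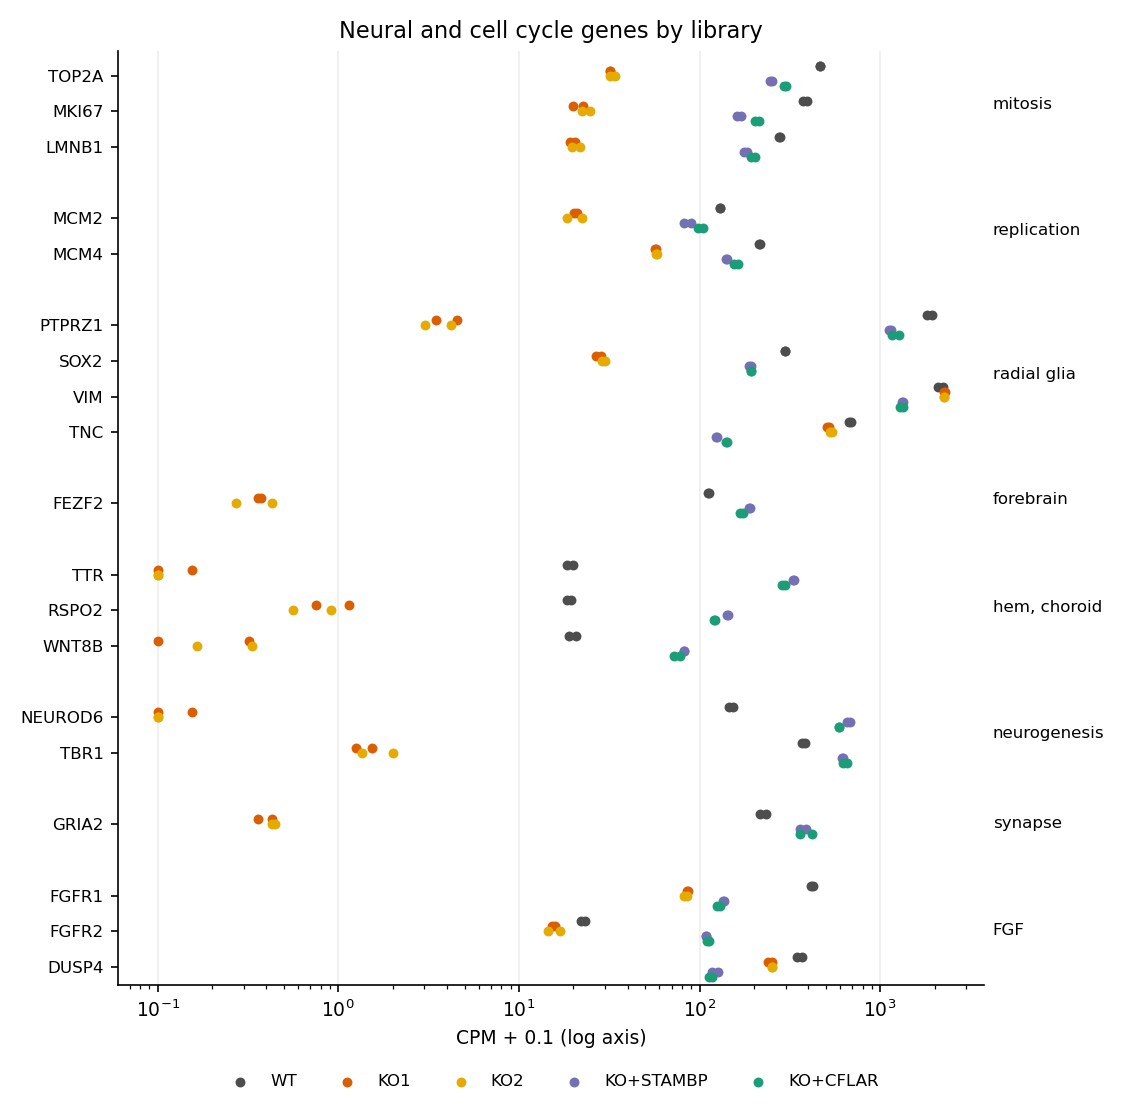
CPM plus 0.1 on a log axis for cell cycle, neural and FGF pathway genes, with a point for each of 10 libraries. For mitosis and replication genes the libraries labelled KO+CFLAR lie between the knockout and WT, and for TTR, RSPO2, WNT8B, NEUROD6 and FGFR2 they lie above both.

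Cell division genes rose but remained below WT. All 26 mitosis genes rose (median log2 2.17), and all 26 were lower than WT (median -0.66), where 17.9% of all tested genes were lower. TOP2A, a topoisomerase of dividing cells, was at 300.04 and 295 CPM, above the 31.8, 31.9, 33.8 and 31.9 CPM of the knockout and below the 462 and 464 CPM of WT (log2 change 3.20 ± 0.03 SE, adjusted p = 4.77e-18). MKI67 was at 212 and 203 CPM, against 19.8, 22.7, 24.8 and 22.2 CPM in the knockout and 392 and 372 CPM in WT (log2 change 3.22 ± 0.05 SE, adjusted p = 3.18e-16 and log2 -0.88 ± 0.05 SE against WT, adjusted p = 6.18e-09). Of 26 replication genes, 25 rose and cyclin E1, CCNE1, fell (-0.40 ± 0.13), a call lost under library size scaling (log2 -0.20, adjusted p = 0.194 by edgeR's test), and 23 were lower than WT. The helicase subunit MCM2 was at 97.4 and 104 CPM against 20.9, 20.1, 22.2 and 18.3 CPM in the knockout and 129 and 129.6 CPM in WT (log2 change 2.31 ± 0.06 SE, adjusted p = 7.59e-14).

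Among regulators of the G1 phase, cyclin D1, CCND1, went from 832, 833, 869 and 864 CPM to 43.1 and 42.6 CPM (log2 change -4.31 ± 0.04 SE, adjusted p = 7.61e-19), and the inhibitor CDKN2B from between 239 and 262 CPM to 3.49 and 2.77 CPM. CDKN1B (p27), which rises in cells leaving the cycle, was at 138 and 140.2 CPM, above both the knockout (46.8 to 49.8 CPM) and WT (121 and 122 CPM). CDK6, a G1 kinase, was below both, at 57.3 and 45.9 CPM against 243 to 255 CPM in the knockout and 146 and 129.9 CPM in WT. Of 26 primary microcephaly genes, most of them centrosome or mitosis proteins, 18 rose and 6 fell, and 21 were lower than WT. LMNB1, a nuclear lamin, was at 192 and 203 CPM against 19.1, 20.3, 21.6 and 19.7 CPM in the knockout and 278 and 276 CPM in WT (log2 change 3.30 ± 0.04 SE, adjusted p = 4.95e-17), while COPB2, a vesicle coat subunit, fell (-1.05 ± 0.03).

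Of 26 cholesterol and fatty acid synthesis genes, 21 rose, 5 of them beyond 2-fold, and 4 fell, or 2 under library size scaling (median 0.47). The desaturase SCD was at 570.04 and 557 CPM against 190.2, 206, 203 and 209 CPM (log2 change 1.48 ± 0.03 SE, adjusted p = 7.85e-15). Of 27 glycolysis and hypoxia genes, 18 fell and 3 rose (median -1.16), or 18 and 6 under library size scaling, with the glucose transporter SLC2A1 at 80.7 and 78.4 CPM against 704 to 737 CPM in the knockout and 167 and 170.1 CPM in WT (-3.18 ± 0.04). The neuronal enolase ENO2 rose (2.45 ± 0.05) while ENO1 fell (-1.39 ± 0.03). Of 13 mitochondrially encoded genes, 9 rose and 3 fell, 0 of them beyond 2-fold. MT-CO3 was at 3916 and 4132 CPM against 2906 to 3131 CPM (0.40 ± 0.03). The falls of MT-CO2, MT-ND2 and MT-ND4L (-0.11 to -0.13) turned to values above 0 under scaling by library size alone.

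Of 37 WNT genes, 22 rose and 13 fell, where 40.0% and 38.0% of all tested genes did. WNT7B, a ligand of cortical progenitors, was at 143 and 147 CPM against 5.45, 5.28, 4.498 and 5.08 CPM in the knockout and 231 and 239 CPM in WT (log2 change 4.83 ± 0.05 SE, adjusted p = 5.34e-18), and the secreted antagonists went opposite ways, SFRP1 up (2.23 ± 0.04) and SFRP2 down (-3.07 ± 0.04). Of 21 Notch genes, 11 rose and 8 fell, near the 40.0% and 38.0% of all tested genes. The ligand DLL1 rose (3.17 ± 0.07) and the ligand JAG1 went from between 451 and 458 CPM to 48.1 and 44.6 CPM (-3.30 ± 0.04).

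Of 28 TGF-beta and BMP genes, 22 fell (median -1.31). CCN2, a TGF-beta and YAP target, was at 3.68 and 6.35 CPM against 746, 744, 750.3 and 741 CPM (log2 change -7.21 ± 0.10 SE, adjusted p = 9.03e-17). ID4, a BMP target that restrains differentiation, rose from between 23.4 and 27.8 CPM to 455 and 449.6 CPM (log2 change 4.17 ± 0.04 SE, adjusted p = 7.15e-19) and lay above the 222 and 225 CPM of WT.

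Of 36 tested FGF, EGF and MAPK feedback genes, 23 fell and 12 rose, where 38.0% and 40.0% of all tested genes did. Against WT 18 were lower and 4 higher, where 17.9% and 15.8% of all tested genes were. Against KO+STAMBP, 1 was lower and 0 higher. EGFR was at 10.01 and 9.89 CPM against 259.7, 253, 258 and 270.3 CPM (log2 change -4.71 ± 0.06 SE, adjusted p = 2.86e-17). FGFR1 was at 125 and 129.99 CPM against 86.5, 85.4, 82.1 and 84.9 CPM in the knockout and 425 and 416 CPM in WT (log2 -1.72 ± 0.04 SE against WT, adjusted p = 3.81e-13), so its rise of 0.59 left it far below WT. FGFR2 was at 113 and 109.99 CPM against 15.8, 15.2, 16.9 and 14.3 CPM in the knockout and 22.1 and 23.2 CPM in WT (log2 2.29 ± 0.06 SE against WT, adjusted p = 3.55e-12). The phosphatase DUSP4, a feedback inhibitor induced by ERK, was at 113 and 117 CPM, below both the knockout (241 to 253 CPM) and WT (371 and 348 CPM).

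Markers of other cells the cultures could hold were examined as well. Of 18 tested astrocyte and oligodendrocyte genes, 9 rose and 6 fell, where 40.0% and 38.0% of all tested genes did. SLC1A2, a glutamate transporter also made by radial glia, rose (7.57 ± 0.09) and ALDH1L1, an astrocyte enzyme, was not called. Of 16 neural crest and melanocyte genes, 8 fell and 6 rose, near that background. ETS1 fell, at 0.419 and 0.0907 CPM against 179 to 187 CPM. The melanin enzyme DCT rose, at 135 and 129 CPM against 0.1101, 0.652, 0.794 and 0.346 CPM (log2 change 8.19 ± 0.13 SE, adjusted p = 2.74e-16), and TYR was at least 232-fold higher. Mesoderm, endoderm, blood and endothelial genes summed to 5.26 and 6.08 CPM against 63.3 to 67.0 CPM in the knockout. Of 12 tested pluripotency genes, 7 fell, including LIN28B (-2.31 ± 0.09), and POU5F1 was not called at 1.49 and 0.816 CPM. Of 19 listed hindbrain and spinal cord factors, 3 had enough counts to be tested.

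Some genes lay outside the range set by knockout and WT. Between the libraries labelled KO+CFLAR and KO+STAMBP, 229 of 21063 genes (1.09%) differed, so such a position need not be particular to the former. On the upper side TTR, RSPO2, WNT8B, FGFR2 and ID4 are given above. Of these, TTR, RSPO2, WNT8B and FGFR2 were not called higher than in KO+STAMBP. AMBN, an enamel matrix gene, was at 15.7 and 16.96 CPM against 0 to 0.198 CPM in the knockout and 0.989 and 0.733 CPM in WT. ADM, the vasodilator adrenomedullin, was at 0.419 and 0.408 CPM against 103, 102, 109 and 99.8 CPM in the knockout and 19.03 and 19.6 CPM in WT (log2 change -7.94 ± 0.12 SE, adjusted p = 1.13e-16 and log2 -5.52 ± 0.17 SE against WT, adjusted p = 9.20e-12). ETV4, an ETS factor induced by FGF signalling, was at 2.89 and 5.31 CPM against 44.9 to 46.2 CPM in the knockout and 142 and 149.9 CPM in WT (log2 -5.15 ± 0.12 SE against WT, adjusted p = 7.01e-13). RASEF (-3.22 ± 0.13 against WT), SERPINA3 (-4.64 ± 0.49) and CBR3 (-3.18 ± 0.37) lay below both as well.

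Between the libraries labelled KO+CFLAR and those labelled KO+STAMBP, 229 genes (1.09%) were called, 132 higher (0.627%) and 97 lower (0.461%), and 2597 had an unadjusted p under 0.05. Leaving out 1 library at a time gave 27 (without KO+STAMBP replicate 1), 29 (without KO+STAMBP replicate 2), 52 (without KO+CFLAR replicate 1) or 313 calls (without KO+CFLAR replicate 2). Scaled by library size alone, 108 were higher and 122 lower. In the same test CFLAR differed by -0.08 ± 0.07 on the log2 scale (adjusted p = 0.737) and STAMBP by -0.05 ± 0.08 (adjusted p = 0.888), with CFLAR at 32.1 and 32.1 CPM and STAMBP at 40.4 and 45.3 CPM in KO+STAMBP.

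By annotated type, 15697 protein-coding genes had a median log2 change of -0.05, with 6356 higher and 6866 lower. Long intergenic non-coding RNAs leaned upward, with 522 of 1275 higher and 244 lower (median 0.43), as did antisense RNAs, with 511 of 1415 higher and 286 lower (median 0.30). So did transcribed unprocessed pseudogenes (142 higher, 76 lower), processed transcripts (126 higher, 71 lower) and processed pseudogenes (85 higher, 71 lower). Among all tested genes 40.0% were higher and 38.0% lower. No strand setting is stated for the counting, so reads of an antisense RNA and of the gene it overlaps cannot be told apart. Chromosome medians lay between -0.13 (chromosome 11) and 0.26 (X).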

How the data were processed

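RNA was extracted with Trizol and sequenced from TruSeq libraries, per the labels' protocols. The authors deposited a table of raw counts per gene for 10 libraries. Per the submitters' processing notes, the tools were RSEM 1.2.4, fastp 0.20.0 and DESeq2, with builds GRCh38 and hg38; the role of each is not stated. Of 60898 rows, 667 lack an Ensembl identifier and hold 0.330% of the counts.

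From these counts, edgeR 4.0.16 (R 4.3.3) kept 21063 genes (filterByExpr), scaled by TMM and fitted 5 group means over 10 libraries with a quasi-likelihood model (5 residual degrees of freedom); KO1 and KO2 were weighted equally. DESeq2 1.42.0 was an alternative. Calls used a Benjamini-Hochberg adjusted p under 0.05, and glmTreat tested change beyond a log2 size of 1. The steps were also run on simulated counts in which few genes changed, so that run does not cover changes as broad as those here.

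Genes named are the targeted genes, the largest changes among genes of at least 2 CPM, and genes outside the range of knockout and WT. From each list, the called members of highest CPM are named, with those going the other way or not called. List members were thus not ranked by size of change itself. The ranked members had to be called and could be high in either group alone, so this choice can favour large changes. The named members are therefore not a representative sample of a list, while the list counts and medians cover all its tested members. The 48 gene lists and the groups compared were chosen with earlier results of these data known. The lists hold 1094 genes, of which 1039 were tested. Positions are from GENCODE 29, and promoters from RefSeq (GRCh38.p14). Some genes that the rule names are not reported here.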

Additional observations from a re-analysis of the deposited data

Results flagged for a closer look

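The libraries labelled KO+CFLAR and KO+STAMBP differed in 229 genes by edgeR's quasi-likelihood test with Benjamini-Hochberg adjustment. CFLAR and STAMBP RNA were near WT in the former and its label was not tested, so the difference is between libraries as labelled. Among the genes named by rule, those higher in KO+CFLAR were the pseudogene CPSF1P1 (log2 difference 8.53, adjusted p = 0.00734), the read-through gene PDCD6-AHRR (8.42, adjusted p = 0.00954), ZNF395 (3.74, adjusted p = 0.000629), KRBA2 (2.09, adjusted p = 0.00995) and ZBTB20, a zinc finger factor of hippocampal and glial development (1.53, adjusted p = 0.038). Lower in KO+CFLAR were AMIGO3 (-8.74, adjusted p = 0.0487), the cornified envelope gene SPRR3 (-1.20, adjusted p = 0.0463), the keratin KRT6A (-1.04, adjusted p = 0.0223), BMP4 (-0.99, adjusted p = 0.0195) and the imprinted RNA H19 (-0.81, adjusted p = 0.0388). Where a group has 0 counts, as for CPSF1P1 in KO+STAMBP and KCNRG in KO1, the fitted difference depends on the prior count and is no bound. CPSF1P1 was at 2.79 and 2.18 CPM in the libraries labelled KO+CFLAR and at 0 in both KO+STAMBP libraries, and ZNF395 at 15.8 and 11.7 against 0.516 and 1.55 CPM. BMP4, a ligand of the dorsal midline and of surface ectoderm, was at 1.96 and 2.59 CPM against 4.28 and 4.76 CPM. Read-through genes and pseudogenes share sequence with their neighbours or parents, and how the counting divided their reads is not stated.

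The change from KO1 differed from the change from KO2 for 33 genes, by the same test applied to the 2 lines. Higher in KO1 were JPH4, a junctional membrane protein (log2 difference 5.53, adjusted p = 0.000239), ZNF395 (1.97, adjusted p = 0.0436), CCDC39 (1.36, adjusted p = 0.0219), for which 2 gene entries share the symbol, the mitotic kinesin KIF20B (0.95, adjusted p = 0.00118) and the neuronal pentraxin NPTX1 (0.92, adjusted p = 0.0389). Higher in KO2 were KCNRG (-7.25, adjusted p = 0.00687), the read-through gene GET1-SH3BGR (-2.75, adjusted p = 0.0445) and ZMYM6 (-0.98, adjusted p = 0.00418). JPH4 was at 1.82 and 1.63 CPM in KO1 and 0.0661 and 0 CPM in KO2, and KCNRG at 0 in both KO1 libraries and 1.26 and 0.808 CPM in KO2. ZNF395 stood apart in both comparisons.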

How the results depend on the processing

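The count for KO+CFLAR against the knockout lay between 13304 (protein-coding genes alone) and 17250 (no low-count filter) over all alternatives, and the count beyond 2-fold between 6393 and 8638. DESeq2 called 15595 and 6724. Leaving out 1 library at a time gave 15429 to 16435 and 7658 to 8179, against KO1 14808 to 15051, against KO2 14686 to 14891 and against WT 5466 to 5938. Against KO+STAMBP the count moved to 780 without the filter, 364 by DESeq2 and 27 to 313 with 1 library left out. KO1 against KO2 moved to 251 without the filter and 20 to 58 with 1 library left out. The cause was not tested. Without the filter, genes with few counts enter. Chromosome medians became 0.0653 (lowest) and 0.458 (highest) under library size scaling. Under that scaling MT-CO2 (0.08732), MT-ND2 (0.06745) and MT-ND4L (0.06682) moved from below to above 0 and were no longer called. With KO2 alone as baseline, GET1-SH3BGR went from 1.21 against both lines to -0.16, and ZMYM6 from 0.25 to -0.24. Neither value below 0 was called.

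Same-numbered libraries correlated by -0.0046 to 0.0752 in their deviations from group means, so the numbers were not taken as pairing. With a replicate block the counts were 16367 (8150 beyond 2-fold), 15729 against KO1, 15712 against KO2, 7121 against WT, 301 against KO+STAMBP and 30 for KO1 against KO2.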
